A study of Mus musculus with 14 samples.

Results

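The nuclear oxidative phosphorylation genes are the genes of the cell nucleus that encode the subunits of the 5 mitochondrial complexes which transfer electrons and make ATP. They were chosen by name alone, as every row of both count tables whose gene name begins with Ndufa, Ndufb, Ndufc, Ndufs or Ndufv and a number, with Uqcr, with Cox followed by a subunit number and a, b or c, with Sdh and its subunit letter, or with Atp5, without names that carry the pseudogene mark -ps. This gave 82 genes among the 26570 genes of the basal table and the 25933 genes of the learning table, namely 35 genes of complex I, 4 of complex II, 8 of complex III, 17 of complex IV and 18 of complex V. Of these, 81 passed the filter on low counts in both experiments, and Atp5l2, a copy of the gene of the g subunit, did not.

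The RNA came from the dorsal hippocampus of male C57BL6 mice, 8 months old, and was measured by RNA-seq. THY-Tau22 mice, kept on a C57BL6/J background, are heterozygous for a human Tau transgene with the mutations G272V and P301S, driven by the Thy1.2 promoter and thus expressed in neurons, and develop Tau pathology in the hippocampus. In the basal experiment, 3 WT and 2 THY-Tau22 mice were untrained and came from their home cage. In the learning experiment every mouse had 3 injections at 1 per week. WT VEH_HC mice (n = 3) received saline and stayed in their home cage, and WT VEH mice (n = 2) received saline and were trained. TAU VEH mice (n = 2) were THY-Tau22 mice given CSP, the carbon nanosphere carrier, and TAU MOL mice (n = 2) were THY-Tau22 mice given CSP-TTK21, the carrier loaded with an activator of the acetyltransferases CBP and p300, both at 500 µg per mouse and injection. The trained groups had 3 days of Morris water maze training, a spatial memory task, and were killed 1 h after the last trial. TAU VEH and WT VEH therefore differed in genotype and in vehicle, and the part of each cannot be told apart. The learning comparisons share the libraries of WT VEH or TAU VEH, so that they are not independent of each other, whereas the basal experiment shares no library with them.

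In the inner mitochondrial membrane, complex I (NADH dehydrogenase) and complex II (succinate dehydrogenase) pass electrons to ubiquinone, complex III (cytochrome bc1) passes them on to cytochrome c, and complex IV (cytochrome c oxidase) passes them to oxygen. Complexes I, III and IV pump protons, and complex V (ATP synthase) lets them flow back through a ring of c subunits whose rotation drives the synthesis of ATP. Neurons spend much of this ATP on ion pumps and synaptic transmission. A few of the subunits are encoded by the mitochondrial genome and all others by nuclear genes, which are transcribed, translated in the cytosol and imported.

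The libraries held 24693713 to 52180305 counts in the learning and 28639121 to 37681155 counts in the basal experiment. Values are given as CPM, counts set to a common library total after scaling with TMM factors, and as CPM per kb of exon where genes are compared with each other. Exon length here joins all annotated exons of a gene. In some genes it is far above the longest coding transcript, as in Ndufb7 (4522 against 623 bases) and Atp5b (4237 against 1916 bases). Levels per kb and their order depend on this choice. The nuclear oxidative phosphorylation genes took 1.02 to 1.2% of all counts in the basal and 0.682 to 0.824% in the learning libraries, 2 tables that were prepared separately and are not compared further. Markers of hippocampal neurons summed to 1196 to 1593 CPM and markers of thalamus and neocortex to 106 to 173 CPM over the 14 libraries. The 16 markers of the choroid plexus, an epithelium that borders the ventricle next to the dorsal hippocampus, differed most between libraries. Their summed level stood at 2511 and 1624 CPM for WT VEH, at 84.7, 82.0 and 245 CPM for WT VEH_HC, at 247 and 295 CPM for TAU VEH and at 802 and 733 CPM for TAU MOL, and none of the 16 was at 0 in any library. In the basal experiment it was 350, 448 and 281 CPM in WT and 412 and 1340 CPM in THY-Tau22. Libraries also differed in how the level of a gene, relative to the mean of the experiment, varied with its GC content. Spearman's rho across genes, which are not independent replicates, was 0.085 and 0.28 for WT VEH, 0.41 to 0.45 for WT VEH_HC, -0.62 and -0.41 for TAU VEH, and -0.40 and -0.47 for TAU MOL. In tissue, fewer cells of a type and less RNA per cell cannot be told apart.

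The levels of the genes spanned a wide range per kb of exon. In the 9 learning libraries the highest was Cox8a, the smallest nuclear subunit of cytochrome c oxidase, with a mean of 821 CPM per kb and 629 to 1058 over libraries. Cox6a1, another small subunit of complex IV, followed at 464 CPM per kb, and Atp5b, the catalytic beta subunit of ATP synthase, at 238 CPM per kb. The lowest were Atp5l2 at 0.0331, Cox7b2 at 0.405 and Cox8b at 1.49 CPM per kb. The median over all 82 genes was 41.3 CPM per kb, with 12 genes at 100 or above and 2 genes under 1. By complex, the medians were 39.7 in complex I, 35.9 in complex II, 54.9 in complex III, 34.3 in complex IV and 44.2 CPM per kb in complex V. Within complex IV the supernumerary subunits used in most tissues had a median of 150.5 CPM per kb and the 6 tissue isoforms one of 2.47 CPM per kb. The paralog Ndufa4l2 is counted among these 6.

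Where a subunit has an isoform for other tissues, the hippocampal libraries held almost only the common one. Over the 14 libraries Cox8a made up 99.6 to 100.0% of the summed level per kb of Cox8a and Cox8b, the isoform of heart and skeletal muscle, which had 0.0201 to 0.442%. Cox6a1 made up 98.8 to 99.4% against Cox6a2, also an isoform of heart and muscle. Cox7a2 made up 97.3 to 98.5% against the muscle isoform Cox7a1. Cox6b1 made up 97.1 to 99% against Cox6b2 and Cox7b 98.7 to 99.7% against Cox7b2, both of which are testis isoforms. Ndufa4, now counted as a subunit of complex IV, made up 98.3 to 99.5% against Ndufa4l2, a paralog known for its induction in low oxygen. The c ring was shared more evenly by this measure. Its 3 genes encode the same mature peptide behind different import signals, and Atp5g3 held 43.6 to 54.8%, Atp5g2 37.8 to 49.7% and Atp5g1 6.25 to 7.54% of their summed level per kb. The exon length used was 2181 bases for Atp5g3 and 647 for Atp5g2, whose longest coding transcripts have 723 and 647 bases. With transcript length the share of Atp5g3 would be larger, so that the evenness depends on the length used.

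**Figure D1:**
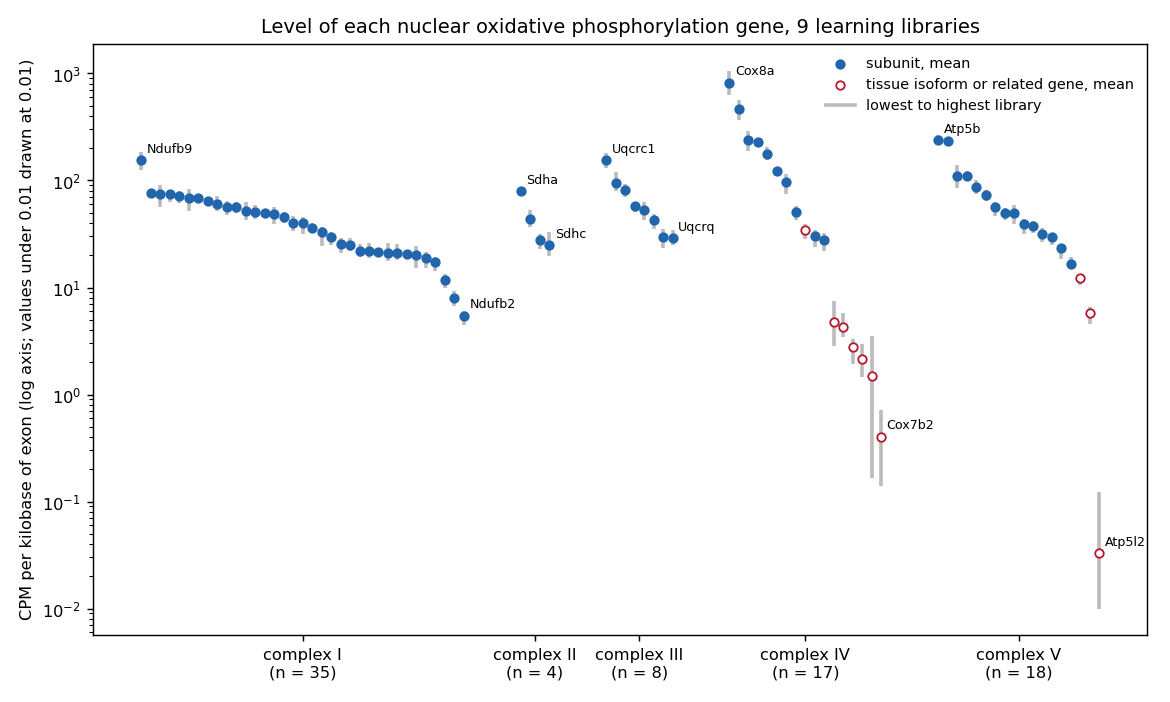
Mean level of each of the 82 genes in the 9 learning libraries as CPM per kb of exon on a log axis, ordered within the 5 complexes, with the grey line from the lowest to the highest library and open points for tissue isoforms and related genes. Cox8a stands highest at 821 CPM per kb, and the tissue isoforms form the low end of complex IV with a median of 2.47 CPM per kb.

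Reads that match several places are a limit for some of these genes, since nuclear subunit genes have many processed pseudogenes and only uniquely aligned reads were counted. For each of 81 annotated transcripts, windows of 50 bases, the read length, were looked up in the mm9 genome. In 41 transcripts no window had an exact copy elsewhere, and in 58 fewer than 10% did. In 6 transcripts more than 50% of windows had one, namely Atp5g2 (100.0%), Atp5l (89.4%), Cox5b (62.7%), Uqcrb (61.5%), Atp5h (59.2%) and Cox7a2l (53.7%). The counts of these 6 genes, and the level of Atp5g2 against its paralogs, are therefore uncertain. The share of copied windows was 39.1% in Uqcr11, 28.8% in Atp5g1, 21% in Cox8a, 12.3% in Cox6a1 and 0% in Atp5g3. In 6 genes more than 10% of exon bases also lie in another annotated gene, and reads were counted without strand. These are Ndufa13 with Tssk6 (30.2%), Ndufb11 with Rbm10 (12.9%), Atp5j with Gabpa (12.7%), Ndufb6 (39%), Cox5a (38.7%) and Atp5o (44%).

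Nuclear subunit genes are known for promoters that bind the nuclear respiratory factor NRF1, the ETS factor GABPA (NRF2) and YY1. Promoter windows of 300 bases, from 250 before to 50 after the start, were taken from RefSeq on GRCm38.p6 and matched 66 of the 82 genes. The NRF1 motif, searched as GCGCA, any base and GCGC on both strands, stood in 17 of 66 windows (25.8%) and in 5.19% of the windows of all 27025 genes. The ETS motif CCGGAAG stood in 16 of 66 (24.2%) and in 9.93% of all, and the YY1 motif AAGATGGCG in 7 of 66 (10.6%) and in 1.64% of all. TATAAA stood in 7 of 66 (10.6%), Cox8b among them, and in 15.7% of all. In all, 29 of the 66 windows held the NRF1 or the ETS motif and 4 held both. A match of letters is not evidence of binding. The windows of 6 genes whose levels differed between groups below are shown to let the positions of the motifs be compared, in lower case with the NRF1 or the ETS motif in capitals on either strand, from 180 bases before to 10 bases after the start. They lie at chr19:7217607-7217796 (minus strand) for Cox8a, chr5:115348949-115349138 (minus) for Cox6a1, chr15:102671038-102671227 (minus) for Atp5g2, chr10:80406812-80407001 (minus) for Uqcr11, chr17:56717582-56717771 (plus) for Ndufa11 and chr9:50603840-50604029 (minus) for Sdhd.
Cox8a: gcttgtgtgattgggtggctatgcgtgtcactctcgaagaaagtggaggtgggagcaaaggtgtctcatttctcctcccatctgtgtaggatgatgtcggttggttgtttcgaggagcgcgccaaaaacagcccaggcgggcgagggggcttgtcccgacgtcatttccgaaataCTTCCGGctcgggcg
Cox6a1: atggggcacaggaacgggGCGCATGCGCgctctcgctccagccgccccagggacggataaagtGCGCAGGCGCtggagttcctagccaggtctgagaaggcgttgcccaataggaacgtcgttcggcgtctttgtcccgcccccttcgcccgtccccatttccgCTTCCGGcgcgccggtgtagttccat
Atp5g2: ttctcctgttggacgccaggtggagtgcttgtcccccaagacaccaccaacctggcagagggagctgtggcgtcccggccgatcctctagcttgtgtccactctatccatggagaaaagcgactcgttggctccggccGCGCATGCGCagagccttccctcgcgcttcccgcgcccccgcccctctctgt
Uqcr11: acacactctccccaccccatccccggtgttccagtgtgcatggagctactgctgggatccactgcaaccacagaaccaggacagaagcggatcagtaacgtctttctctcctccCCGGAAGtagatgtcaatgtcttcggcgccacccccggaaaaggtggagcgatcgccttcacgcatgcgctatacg
Ndufa11: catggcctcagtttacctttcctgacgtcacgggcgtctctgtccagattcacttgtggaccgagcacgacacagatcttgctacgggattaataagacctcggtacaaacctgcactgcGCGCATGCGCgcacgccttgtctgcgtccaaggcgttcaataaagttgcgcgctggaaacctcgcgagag
Sdhd: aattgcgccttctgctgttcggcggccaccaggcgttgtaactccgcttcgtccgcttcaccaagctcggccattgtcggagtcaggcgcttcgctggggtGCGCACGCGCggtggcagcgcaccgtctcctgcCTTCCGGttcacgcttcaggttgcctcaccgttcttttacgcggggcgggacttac
Cox6a1 held 2 NRF1 motifs and 1 ETS motif, and Sdhd held 1 of each. In the stretches shown, Cox8a and Uqcr11 held 1 ETS motif, close to the start in Cox8a, and Atp5g2 and Ndufa11 held 1 NRF1 motif. The window of Cox8a held a further ETS motif 32 bases after the start, past the stretch shown.

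In untrained mice, the question was whether the genes differed between THY-Tau22 and WT hippocampus. A gene was called where edgeR's quasi-likelihood test gave a p under 0.05 after Benjamini-Hochberg adjustment and the log2 fold change was beyond 0.2 in size, here and in all comparisons. None of the 81 genes was called, where 0.0245% of all 16324 genes were. At an unadjusted p under 0.05 there were 3 of the 81 genes, Uqcrq, Uqcr11 and Atp5g2, all lower, where 4.92% of all genes were, and DESeq2 called 0 of the 81. The 81 genes had a median log2 fold change of -0.131, all genes one of -0.007, and 77 of the 81 estimates were below 0. The medians were alike across the complexes, -0.149 in complex I, -0.093 in complex II, -0.141 in complex III, -0.150 in complex IV and -0.119 in complex V.

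Uqcr11, a small subunit of complex III, had 142, 128 and 114 CPM in the WT and 115 and 80.3 CPM in the THY-Tau22 libraries. The groups overlapped, and the low value was that of the second THY-Tau22 library (log2 fold change -0.39, SE 0.16, adjusted p = 0.9, edgeR). Uqcrq, another small subunit of complex III, had 103, 101 and 90.8 CPM in WT and 86.5 and 75.1 CPM in THY-Tau22, without overlap (-0.28, SE 0.12, adjusted p = 0.9). Atp5g2 had 82.9, 85.6 and 78.3 CPM in WT against 76.7 and 53.4 CPM in THY-Tau22, and Cox8a had 484, 481 and 418 CPM against 453 and 319 CPM. In both genes the second THY-Tau22 library was again far below the first. Sdha, the flavoprotein that oxidises succinate, had 416, 435 and 416 CPM against 402 and 425 CPM, and Atp5b had 1496, 1607 and 1433 CPM against 1519 and 1328 CPM, both with overlap. In 22 of the 81 genes every THY-Tau22 library was below every WT library, where 9.49% of all genes were so, and in none was it above, where 9.01% of all genes were.

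The basal shift of -0.131 was of similar size to the spread between libraries of 1 group (pooled SD of the library medians 0.093). The median log2 ratio of the 81 genes to the mean of the experiment was 0.024, 0.169 and -0.037 in the WT libraries and -0.028 and -0.137 in the THY-Tau22 libraries. Without the second WT library the median log2 fold change was -0.062, without the second THY-Tau22 library -0.090, and after correction for GC content and exon length -0.080. The second THY-Tau22 library was also the one with 1340 CPM of choroid plexus markers and a rho with GC content of -0.60. The 6 oligodendrocyte markers had a median log2 fold change of -0.513, 5 of them with an unadjusted p under 0.05, and summed to 11677, 7053 and 9928 CPM in WT and 6863 and 6549 CPM in THY-Tau22. The 5 red blood cell markers had a median of -0.535, 3 with an unadjusted p under 0.05, and summed to 52.0, 66.2 and 73.7 CPM against 53.5 and 30.7 CPM. None of these 11 markers was called, and the part of these cells, of choroid plexus or of GC content in the shift was not tested.

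In trained mice, TAU VEH was compared with WT VEH. Of the 81 genes 11 fell and none rose (edgeR, adjusted p under 0.05), which is 13.6% of the genes where 14.4% of all 16820 genes were called, 10.8% as lower and 3.61% as higher. The count of called genes was thus close to that of all genes, while the 81 genes had a median log2 fold change of -0.162, beside 0.004 for all genes, with 74 of 81 estimates below 0. In 51 of the 81 genes both TAU VEH libraries were below both WT VEH libraries, where 29.4% of all genes were so, and in 1 gene, Ndufs1, they were above, where 28.5% of all genes were. The genes that fell came from all 5 complexes: 1 of 35 in complex I (median -0.149), 1 of 4 in complex II (-0.045), 1 of 8 in complex III (-0.194), 3 of 17 in complex IV (-0.294) and 5 of 17 in complex V (-0.115).

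In complex I the single gene that fell was Ndufa11, an accessory subunit of the membrane arm. It had 61.4 and 69.6 CPM in WT VEH and 46.7 and 53.6 CPM in TAU VEH, without overlap (log2 fold change -0.39, SE 0.11, adjusted p = 0.035). None of the 7 core subunits, which carry the NADH site, the flavin and the iron-sulphur clusters, passed the test, and their median was -0.050. Ndufs1, the largest core subunit, had 82.3 and 83.9 CPM in WT VEH and 87.8 and 98.3 CPM in TAU VEH (0.16, SE 0.08, adjusted p = 0.21). Ndufv1, the subunit that binds NADH, had 133 and 159 CPM against 125 and 137 CPM, with overlap, and Ndufs8, which carries iron-sulphur clusters, had 34.4 and 35.5 CPM against 29.1 and 34.3 CPM. Among the 28 accessory subunits the median was -0.159, and examples are the membrane-arm subunits Ndufa1 at 35 and 34 CPM against 31.1 and 31.1 CPM and Ndufb9 at 118 and 119 CPM against 93.4 and 105 CPM (adjusted p = 0.18).

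In complex II a membrane anchor fell and the catalytic subunits did not pass the test. Sdhc, which holds the haem and the ubiquinone site together with Sdhd, had 95.8 and 107 CPM in WT VEH and 64.4 and 73.1 CPM in TAU VEH (log2 fold change -0.56, SE 0.09, 95% interval -0.76 to -0.36, adjusted p = 0.0021). Both TAU VEH libraries lay well below both WT VEH libraries. Sdhd, its partner, had 58.9 and 68.4 CPM against 55.5 and 63.4 CPM, and the groups overlapped (-0.10, SE 0.10, adjusted p = 0.61). Sdha had 299 and 316 CPM against 312 and 336 CPM (0.07, adjusted p = 0.52), and Sdhb, the iron-sulphur subunit, 65.5 and 64.9 CPM against 60.8 and 70.7 CPM. In complex III Uqcr11 fell, from 70.0 and 77 CPM to 51.1 and 61 CPM (-0.40, SE 0.11, adjusted p = 0.027). Uqcrc1, a core protein, had 252 and 296 CPM against 219 and 243 CPM (-0.25, adjusted p = 0.07), and Uqcrfs1, the Rieske iron-sulphur protein, 76.6 and 82.2 CPM against 76.9 and 85.7 CPM.

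Complex IV held the gene with the lowest adjusted p. Cox8a had 577 and 576 CPM in WT VEH and 343 and 371 CPM in TAU VEH, which is a level of 0.619 times that of WT VEH (log2 fold change -0.69, SE 0.08, 95% interval -0.87 to -0.51, adjusted p = 0.001). Cox6a1 had 361 and 401 CPM against 260.1 and 297 CPM (-0.45, SE 0.10, adjusted p = 0.01). Cox5b, which binds zinc on the matrix side, had 109 and 117 CPM against 89.1 and 95.3 CPM (-0.29, SE 0.08, adjusted p = 0.034). In none of these 3 genes did the groups overlap. The counts of Cox5b are uncertain, since 62.7% of the windows of its transcript have an exact copy elsewhere. Cox5a, its neighbour in the complex, had 84.7 and 91.4 CPM against 81.1 and 80.3 CPM (-0.13, adjusted p = 0.28), and Cox7a2 had 82.2 and 83.9 CPM against 74 and 73.9 CPM (-0.17, adjusted p = 0.47). Ndufa4 had 125 and 125 CPM against 121 and 118 CPM (-0.07, adjusted p = 0.8).

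The 6 tissue isoforms of complex IV, with the paralog Ndufa4l2 counted among them, were low in every library, and 0 of 6 passed the test. Their median log2 fold change was -0.686, and 4 had an unadjusted p under 0.05, where 4566 of all 16820 genes did. Ndufa4l2 had 3.07 and 3.1 CPM in WT VEH and 1.86 and 2.15 CPM in TAU VEH (-0.63, SE 0.20, adjusted p = 0.06), and Cox6a2 had 3.07 and 3.81 CPM against 2.25 and 2.49 CPM (-0.54, adjusted p = 0.1). Cox6b2 had 4.11 and 2.86 CPM against 1.58 and 2.76 CPM, and Cox7a1 1.09 and 1.06 CPM against 0.888 and 0.604 CPM. Cox8b had 1.28 and 0.795 CPM against 0.197 and 0.453 CPM (-1.80, SE 0.59, adjusted p = 0.067), and Cox7b2 had 0.387 and 0.344 CPM against 0.237 and 0.0755 CPM.

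In complex V all 3 genes of the c ring fell, but Atp5g2 rests on uncertain counts. Of the windows of its annotated transcript, 100.0% have an exact copy elsewhere, and only uniquely aligned reads were counted. Which reads gave its counts was not tested. Atp5g2 had 84.1 and 89.8 CPM in WT VEH and 55 and 60.6 CPM in TAU VEH (log2 fold change -0.59, SE 0.09, 95% interval -0.79 to -0.39, adjusted p = 0.0019). Atp5g1 had 86.6 and 94.7 CPM against 73.4 and 77 CPM (-0.27, SE 0.07, adjusted p = 0.031), and Atp5g3 had 249.6 and 267 CPM against 216 and 224 CPM (-0.23, SE 0.07, adjusted p = 0.035). In each of the 3 the groups were apart. Of the 5 subunits of the F1 part, the catalytic head with its rotating stalk, 1 fell: Atp5d, the delta subunit of the stalk, had 172 and 197 CPM against 144 and 159 CPM (-0.29, adjusted p = 0.034). Atp5sl, which shares the name but is not a subunit of the enzyme, had 37.9 and 39 CPM against 30.8 and 31.1 CPM (-0.32, adjusted p = 0.0098). The other F1 subunits did not pass the test. Atp5a1, the alpha subunit of the head, had 707 and 801 CPM against 709.9 and 793 CPM (-0.01, SE 0.08), Atp5b had 1016 and 1134 CPM against 948 and 1037 CPM (-0.12, SE 0.07, adjusted p = 0.36), and Atp5e, the epsilon subunit of the stalk, had 63.1 and 59.1 CPM against 53.2 and 54.8 CPM (-0.18, adjusted p = 0.4).

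**Figure D2:**
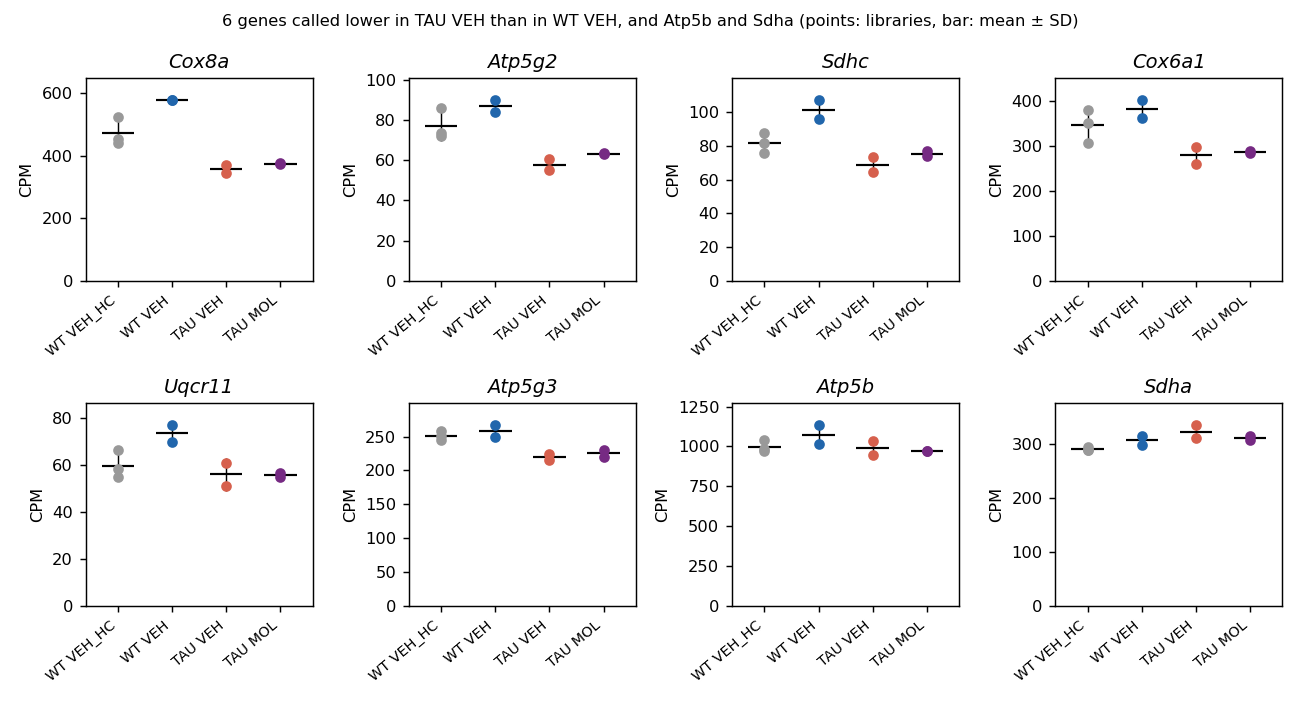
CPM of 8 genes in the 9 learning libraries by group, with points for libraries and a bar for the mean ± SD, on axes that begin at 0. Cox8a, Atp5g2 and Sdhc sit lowest in TAU VEH and TAU MOL, whereas Sdha and Atp5b lie close together in all 4 groups. The level of Atp5g2 is uncertain, since its transcript has exact copies elsewhere.

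Several values moved together with this difference. After correction for GC content and exon length, 5 of the 81 genes were called lower, Cox8a (-0.47), Sdhc (-0.60), Atp5g2 (-0.42), Atp5g1 (-0.36) and Atp5g3 (-0.32), where 2.14% of all genes were, and the median was -0.110. For Atp5g2 the counts themselves are uncertain. The calls of Cox6a1 (-0.13), Uqcr11 (-0.16), Ndufa11 (-0.13), Cox5b (-0.11), Atp5d (-0.05) and Atp5sl (-0.26) were lost. Within classes of GC content, the genes had a median log2 fold change of -0.049 up to 45% GC, -0.143 up to 50%, -0.180 up to 55% and -0.290 above, beside 0.155, 0.084, -0.051 and -0.248 for all genes of the same class. Scaling by library size alone moved the median of all genes to 0.15, and that of the 81 genes to -0.01, with 4 genes called lower, where 6.06% of all genes were, and 2 higher, where 15.3% were. The 11 genes listed above stayed below 0 under that scaling, between -0.544 for Cox8a and -0.084 for Atp5g3, and Ndufs1 (0.31) and Sdha (0.22) were called higher. The choroid plexus markers differed in the same comparison, with 15 of 16 called lower. With their score as a covariate the median of the 81 genes was 0.223 and no gene was called, while the median SE went from 0.11 to 0.19, and the part of choroid plexus tissue in these differences was not tested. Markers of other cells differed as well. Of 6 pan-neuronal markers Camk2a (-0.55), Rbfox3 (-0.33) and Slc17a7 (-0.63) were called lower (median -0.224), and their summed level was 17558 and 17635 CPM in WT VEH against 13398 and 13037 CPM in TAU VEH. Of 9 markers of hippocampal neurons Fibcd1 (-0.76) and Wfs1 (-0.92) were called lower and Zbtb20 (0.66) higher, and of 6 astrocyte markers Gfap (0.70) and Aqp4 (0.38) were called higher, with sums of 1355 and 1259 CPM against 1586 and 1720 CPM. After correction for GC content and length Camk2a and Gfap alone of these 8 genes were called. Of 8 markers of thalamus and neocortex Cux2, Fezf2 and Lef1 were called lower, and 2 of the 8 after the correction. Of 6 interneuron markers Pvalb and Slc32a1 were called lower, and 1 of the 6 after it. Of 6 microglia markers Tmem119 was called lower, and 0 after it. No oligodendrocyte, endothelial, red blood cell or muscle marker was called. The part of neurons, astrocytes and these other cells in the differences was not tested. Leaving out 1 library at a time left 7 of the 81 genes called without the first WT VEH library, 3 without the second, 3 without the first TAU VEH library and 6 without the second, where 7.07, 7.36, 5.29 and 7.17% of all genes were called.

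The same genes were then read in the untrained mice, which share no library with this comparison. Of the 81 genes, 71 had estimates below 0 in both experiments, where 77 were below 0 in the basal and 74 in the trained comparison alone. All 11 genes that fell in TAU VEH had basal estimates below 0, with a median of -0.205 and no call. With most estimates below 0 in each experiment, these counts do not tell whether the same genes moved in both. Across the 81 genes, which are not independent and share GC content and length, Pearson's r between both log2 fold changes was 0.17 and Spearman's rho 0.54, and over 16216 genes rho was 0.33.

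**Figure D3:**
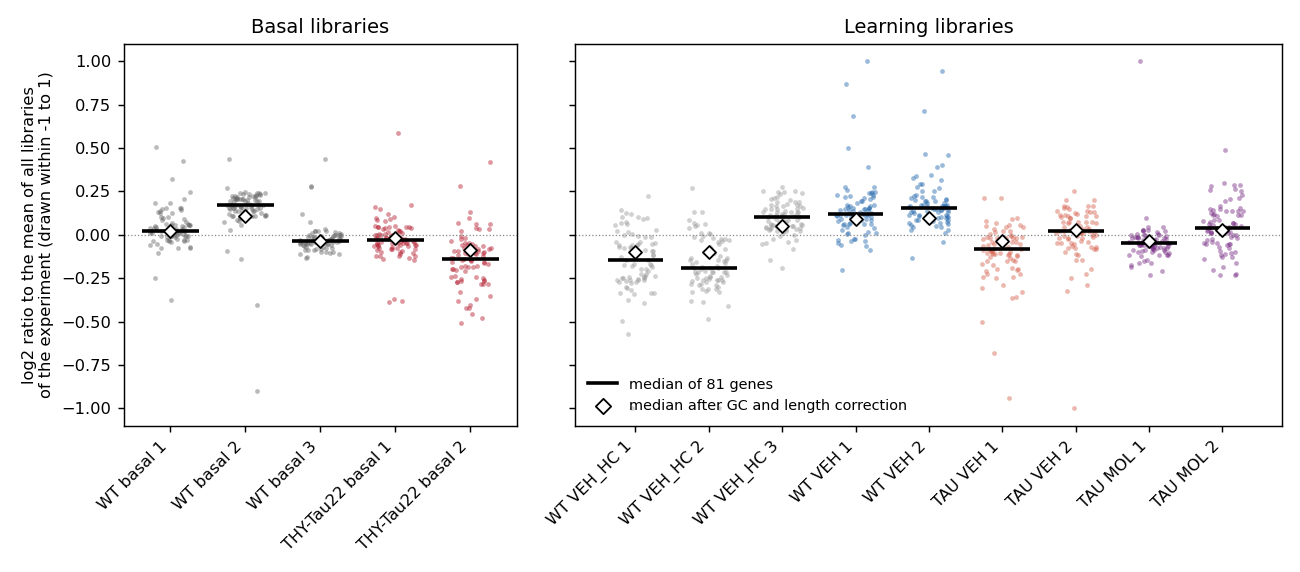
Log2 ratio of each of the 81 genes to the mean over the libraries of its experiment (points, drawn within -1 to 1), with the median as a bar and the median after correction for GC content and length as a diamond. The medians run from -0.137 to 0.169 in the basal and from -0.190 to 0.157 in the learning libraries, and the third WT VEH_HC library at 0.103 stands apart from the other WT VEH_HC libraries.

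The mitochondrially encoded subunits of the same complexes also differed between TAU VEH and WT VEH. Of 12 tested, 5 fell: mt-Nd1 and mt-Nd2 of complex I (log2 fold change -0.54 and -0.59), mt-Cytb of complex III (-0.43), mt-Co2 of complex IV (-0.52) and mt-Atp6 of complex V (-0.43). The median over the 12 was -0.427, both TAU VEH libraries were below both WT VEH libraries in all 12, and 6 were called lower after correction for GC content and length. In a poly-A library these transcripts are caught only through short tails, and their level cannot be compared with that of nuclear genes. In the other comparisons 0 of the 12 were called (edgeR), with medians of -0.090 between the basal groups, 0.189 between TAU MOL and TAU VEH, -0.238 between TAU MOL and WT VEH and 0.069 between WT VEH and WT VEH_HC, and with 0, 0, 3 and 1 genes at an unadjusted p under 0.05. Of 8 further oxidative phosphorylation genes outside the name rule, Cyc1, the cytochrome of complex III, fell between TAU VEH and WT VEH (-0.30), a call that was lost after the correction (-0.08).

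The effect of the activator was read between TAU MOL and TAU VEH, mice of 1 genotype that differ in the load of the carrier. None of the 81 genes was called (edgeR's quasi-likelihood test), as was none of all 16820 genes (0%). At an unadjusted p under 0.05 there were 2 of the 81 genes, Atp5sl and Cox8b, and 6.33% of all genes, and DESeq2 called 56 genes of which 0 were oxidative phosphorylation genes. The median log2 fold change was 0.033 beside 0.009 for all genes, with 54 of 81 estimates above 0. It ran from -0.03 without the second TAU MOL library to 0.09 without the second TAU VEH library. In 10 of the 81 genes both TAU MOL libraries were above both TAU VEH libraries and in 1 below, where 21.5% and 17.4% of all genes were. By complex, the medians were 0.028, -0.053, -0.020, 0.069 and 0.032 for complexes I to V.

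Of the genes that fell in TAU VEH, the 4 with the largest fall had close values in TAU MOL. Cox8a had 374 and 375 CPM in TAU MOL, next to 343 and 371 CPM in TAU VEH (log2 fold change 0.07, 95% interval -0.11 to 0.25). Atp5g2 had 62.8 and 63.5 CPM in TAU MOL (0.13, -0.07 to 0.33), Sdhc 76.7 and 74 CPM (0.14, -0.06 to 0.33) and Cox6a1 288 and 284 CPM (0.04, -0.18 to 0.26). All 4 intervals include 0, and each ends below the size of the difference between TAU VEH and WT VEH in the same gene. Among these 4 genes, Atp5g2 has uncertain counts. Over the 81 genes the 95% interval of the difference included 0 in 79 and lay within 0.5 on either side of 0 in 75. The intervals that left out 0 were those of the 2 genes with an unadjusted p under 0.05. Cox8b had 0.935 and 0.574 CPM in TAU MOL and 0.197 and 0.453 CPM in TAU VEH (1.34, SE 0.61, interval 0.01 to 2.67, adjusted p = 0.78). Atp5sl, which also belongs to the genes that fell in TAU VEH, had 33.4 and 35.3 CPM in TAU MOL, above the 30.8 and 31.1 CPM in TAU VEH (0.15, SE 0.07, adjusted p = 0.78). The summed choroid plexus markers were 802 and 733 CPM in TAU MOL and 247 and 295 CPM in TAU VEH.

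TAU MOL was also compared with WT VEH, whose libraries the comparison of TAU VEH uses too. Here 5 of the 81 genes fell and none rose, where 5.63% of all genes were called, 5.02% as lower and 0.612% as higher, and the median log2 fold change was -0.132 beside 0.002 for all genes. These were Cox8a (-0.62, SE 0.08, adjusted p = 0.0099), Atp5g2 (-0.46, SE 0.09, adjusted p = 0.018), Sdhc (-0.43, SE 0.09, adjusted p = 0.021), Cox6a1 (-0.41, SE 0.10, adjusted p = 0.034) and Uqcr11, which had 54.7 and 56.6 CPM in TAU MOL (-0.40, SE 0.11, adjusted p = 0.047). Both TAU MOL libraries were below both WT VEH libraries in these 5 and in 45 of all 81 genes, where 26.9% of all genes were so, and above in 1, where 25.6% were. The other genes of the c ring did not pass the test, Atp5g1 with 76.4 and 80.2 CPM in TAU MOL (-0.21, adjusted p = 0.13) and Atp5g3 with 220.5 and 230.3 CPM (-0.20, adjusted p = 0.11). Of the 5 called genes, Atp5g2 has uncertain counts. None of the 35 genes of complex I was called, and their median was -0.132. At an unadjusted p under 0.05 there were 5 of them, where 3324 of all 16820 genes were. After correction for GC content and length Cox8a alone was called lower, where 0.0892% of all genes were, and with any 1 of the 4 libraries left out none of the 81 genes was called, where 0.0116 to 0.0231% of all genes were. Of the 16 choroid plexus markers 10 were called lower in the same comparison.

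**Figure D4:**
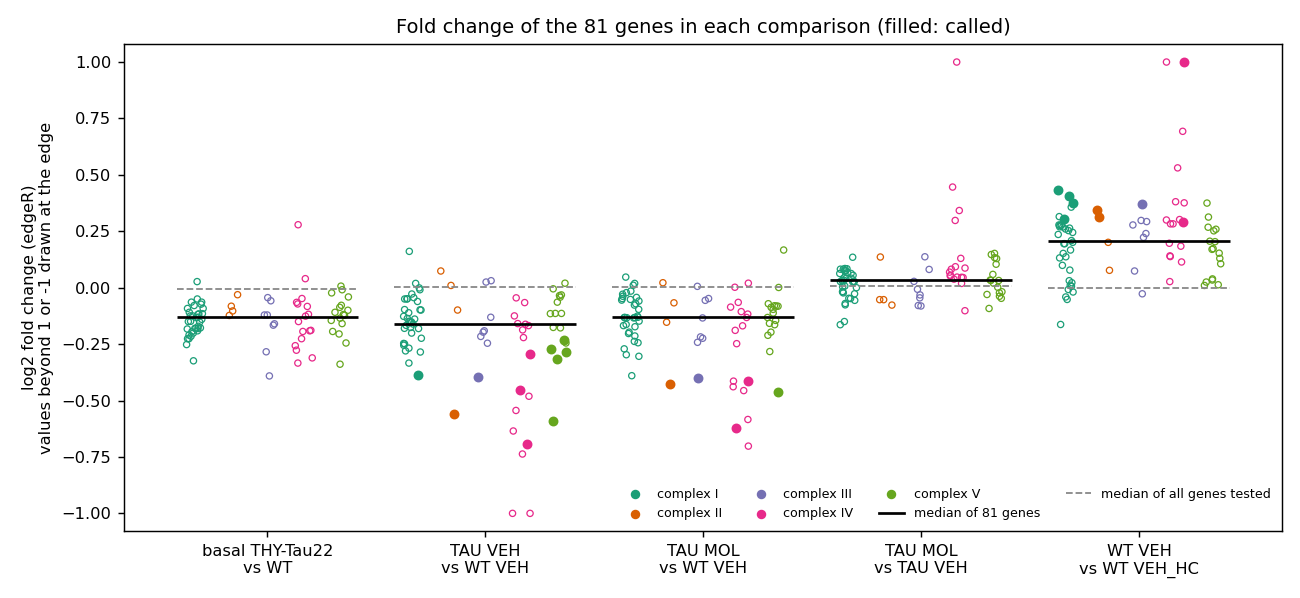
Log2 fold change of the 81 genes in each of the 5 comparisons by complex, filled where called, with the median of the 81 genes as a black line and that of all genes tested as a dashed line. The medians lie at -0.131, -0.162, -0.132, 0.033 and 0.209 from left to right, and filled points occur in 3 comparisons.

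Training was examined between WT VEH and WT VEH_HC, which were both given saline. Of the 81 genes 9 rose and none fell, which is 11.1% of the genes where 8.40% of all genes were called, 5.35% as higher and 3.05% as lower. The median log2 fold change was 0.209 beside -0.003 for all genes, and 75 of 81 estimates were above 0. In 39 genes both WT VEH libraries were above all 3 WT VEH_HC libraries, where 23.0% of all genes were so, and in none below, where 20.8% of all genes were. The genes that rose were 4 of 35 in complex I, 2 of 4 in complex II, 1 of 8 in complex III, 2 of 17 in complex IV and 0 of 17 in complex V. In complex V 6 of 17 genes had an unadjusted p under 0.05, where 4683 of all 16820 genes did, and the median was 0.170.

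The genes of complex I that rose were accessory subunits. Ndufa2, a small protein of the arm that faces the matrix, had 43.4 and 43.9 CPM in WT VEH and 30.3, 27.5 and 39.2 CPM in WT VEH_HC (log2 fold change 0.43, SE 0.12, adjusted p = 0.046). Ndufb11, in the membrane arm, had 55 and 56.6 CPM against 39.2, 39.6 and 47.7 CPM (0.41, SE 0.09, adjusted p = 0.028). The groups did not overlap in either gene, and the third WT VEH_HC library was the highest of its group. Ndufa5, of the matrix arm, had 47.3 and 46.3 CPM against 33.7, 32.7 and 41.8 CPM (0.38, adjusted p = 0.049), and Ndufs6, which binds zinc, had 26.2 and 25.1 CPM against 19.8, 19.6 and 22.8 CPM (0.31, adjusted p = 0.048). The 7 core subunits had a median of 0.011, 0 were called and 1 had an unadjusted p under 0.05. Ndufs1 had 75.4, 71.1 and 78 CPM in WT VEH_HC (0.15, adjusted p = 0.18) and Ndufv1 had 156, 154 and 143 CPM (-0.05, adjusted p = 0.71).

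Both membrane anchors of complex II rose. Sdhd had 58.9 and 68.4 CPM in WT VEH and 47, 47.7 and 55.5 CPM in WT VEH_HC (log2 fold change 0.34, SE 0.09, adjusted p = 0.046), and Sdhc had 95.8 and 107 CPM against 75.9, 81.4 and 87.5 CPM (0.31, SE 0.08, adjusted p = 0.04). The libraries of both groups were apart in both genes. Sdha had 299 and 316 CPM against 289, 289.6 and 296 CPM (0.08, adjusted p = 0.42). Uqcrh, the hinge protein of complex III that helps to dock cytochrome c, had 78.1 and 70.5 CPM against 53.4, 52.9 and 66 CPM (0.37, SE 0.10, adjusted p = 0.038). In complex IV Cox8a rose, with 577 and 576 CPM against 440.1, 453 and 522 CPM (0.29, SE 0.08, adjusted p = 0.04). Cox6a1 had 361 and 401 CPM against 351, 307 and 379 CPM, and Cox7a2 82.2 and 83.9 CPM against 56, 59.9 and 75.4 CPM (0.38, adjusted p = 0.066). In the c ring, Atp5g2 had 71.8, 73.5 and 86 CPM in WT VEH_HC, which overlaps with its 84.1 and 89.8 CPM in WT VEH (0.17, adjusted p = 0.2).

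Cox8b, the muscle isoform, had the largest fold change of the 9 and the lowest counts. It had 53 and 30 counts in WT VEH and 7, 3 and 18 counts in WT VEH_HC, that is 1.28 and 0.795 CPM against 0.178, 0.0604 and 0.39 CPM (log2 fold change 2.31, SE 0.53, 95% interval 1.15 to 3.47, adjusted p = 0.028). In the learning libraries its level followed the order WT VEH, TAU MOL, TAU VEH and WT VEH_HC in group means, and the summed choroid plexus markers followed the same order. Its libraries overlapped between WT VEH and TAU MOL and between TAU VEH and WT VEH_HC. In the basal libraries Cox8b had 0.892, 0.575 and 0.943 CPM in WT and 0.589 and 0.943 CPM in THY-Tau22, with 281 to 1340 CPM of choroid plexus markers. Striated muscle markers summed to 7.13 to 11.1 CPM over the 14 libraries. The part of choroid plexus tissue in the level of Cox8b was not tested.

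**Figure D5:**
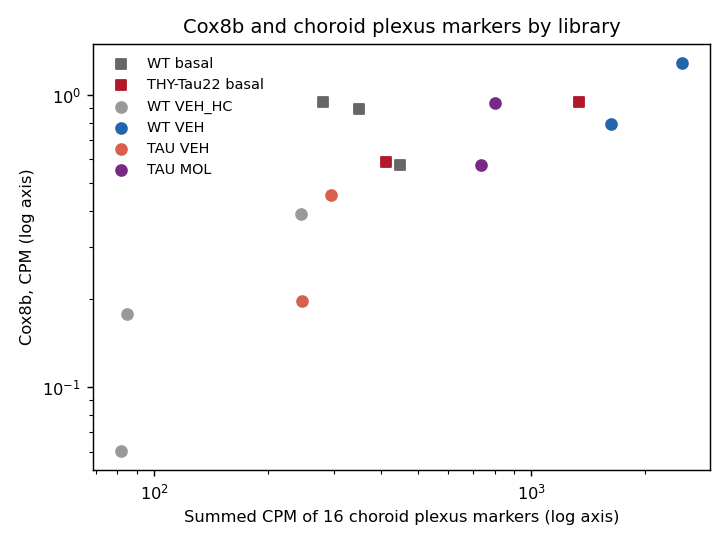
CPM of Cox8b against the summed CPM of 16 choroid plexus markers in the 14 libraries, both on log axes, coloured by group, with squares for basal libraries. The WT VEH libraries (1.28 and 0.795 CPM) lie at the upper right and the WT VEH_HC libraries (0.0604 to 0.39 CPM) at the lower left.

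The difference between WT VEH and WT VEH_HC depended on single libraries. The median log2 ratio of the 81 genes to the mean of the experiment was 0.121 and 0.157 in WT VEH and -0.144, -0.190 and 0.103 in WT VEH_HC, so that the third WT VEH_HC library lay near the trained WT mice. Without it 45 of the 81 genes were called higher, where 16.7% of all genes were called. Without the first or the second WT VEH library or the first WT VEH_HC library none of the 81 was called, where 0.422, 1.63 and 3.67% of all genes were, and without the second WT VEH_HC library 3 were, where 5.70% of all genes were. After correction for GC content and length 5 genes were called higher, Cox8b, Ndufa2, Ndufb11, Cox8a and, in addition, Uqcr11, where 3.29% of all genes were, and the median was 0.148. All 16 choroid plexus markers were called higher in this comparison, 2511 and 1624 CPM against 84.7, 82.0 and 245 CPM. With their score as a covariate the median was -0.300 and no gene was called, the median SE rose from 0.10 to 0.27, and the part of choroid plexus tissue was not tested. Pvalb and Vip of 6 interneuron, Hbb-b1 and Hbb-b2 of 5 red blood cell and P2ry12 of 6 microglia markers were called higher. C1ql2 of 9 markers of hippocampal neurons was called lower. After the correction 1 interneuron, 0 red blood cell, 2 microglia and 1 of 8 thalamus and neocortex markers were called higher, and 0 of hippocampal neurons. The part of these cells was not tested. By length class the medians of the genes were 0.276 under 1 kb of exon, 0.209 from 1 to 2 kb and 0.141 above, beside 0.037, 0.046 and -0.011 for all genes.

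Other large complexes of short, abundant transcripts were set beside these genes. Between TAU VEH and WT VEH the median log2 fold change was -0.118 for 78 genes of the cytosolic ribosome (3 lower), -0.074 for 75 genes of the mitochondrial ribosome (1 lower) and 0.025 for 38 genes of the proteasome (1 lower), beside the -0.162 of the oxidative phosphorylation genes. Between WT VEH and WT VEH_HC it was 0.30 (15 higher), 0.137 (6 higher) and 0.180 (1 higher), beside 0.209, and after correction for GC content and length 11, 2 and 1 were called higher. Between TAU MOL and TAU VEH it was 0.064, 0.000 and -0.059, with 0 called in each and 0 at an unadjusted p under 0.05 (edgeR). In the basal comparison the medians were -0.148, -0.122 and -0.053 in the same order, over 77, 75 and 39 genes. The oxidative phosphorylation genes stood at -0.131 there. None was called in any of these sets (edgeR), with 2, 2 and 0 genes at an unadjusted p under 0.05, where 4.92% of all genes were. Of the genes with a promoter window, 6 of the 9 called in TAU VEH and 5 of the 7 called in WT VEH held the NRF1 or the ETS motif, as did 29 of all 66.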

How the data were processed

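RNA-seq libraries were made by the authors with a poly-A protocol from 300 ng of total RNA, without strand, and sequenced as single-end reads of 50 bases. Per the labels and the methods of the study, reads were processed with CASAVA 1.8.2, aligned to mm9 with TopHat2 2.0.10 and Bowtie2 2.1.0, and uniquely aligned reads were counted on Ensembl genes with HTSeq 0.5.4p3. The authors deposited these raw counts, which were used in all tests, together with a signal normalized by a single factor for each library, which was only checked against the counts. Of 12 learning libraries 3, of mice from a single litter, were left out by the authors and not analysed here. The paper gives great variability between samples as the reason, by criteria set afterwards. The spread used by the tests is thus that of the libraries kept. The learning table also holds 138 lines with no values, which were dropped. The labels do not say that replicate numbers mark a shared litter or day.

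Counts were fitted with edgeR 4.0.16 in R 4.3.3 (limma 3.58.1, TMM factors, filterByExpr, quasi-likelihood F test, Benjamini-Hochberg adjustment over all genes), the 5 basal libraries alone and the 9 learning libraries in 1 fit. With 2 or 3 mice per group, the p-values rest on the spread between these libraries. Fits were tested on simulated data first. Alternatives were DESeq2 1.42.0, other scalings and filters, only the groups compared, the replicate number as a block, no limit on the fold change, loess correction for GC content and exon length (span 0.3), a choroid plexus covariate and leaving out each library. Exon lengths, GC content and copies (blastn 2.17.0+) were computed from mm9 (NCBIM37) and a GENCODE annotation of that build, and promoters from RefSeq tables on GRCm38.p6, in which 16 of the 82 genes were not matched. Python 3.11.15 was used with pandas 2.3.3, numpy 2.4.6 and, for figures, matplotlib 3.10.9.

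The genes and lists were chosen with earlier results of these data known. Named genes were, in each comparison, up to 8 called genes in each direction with the largest change, a list of 29 fixed names over all complexes, and the 3 most and 3 least abundant per kb. The other called genes of TAU VEH and the basal genes with a low unadjusted p were named after their values were seen.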

Additional observations from a re-analysis of the deposited data

How the results depend on the processing

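With basal THY-Tau22 against WT and TAU MOL against TAU VEH, 0 of the 81 genes were called under every alternative with more than a single library per group. Over these alternatives 0.00613 to 0.508% of all genes were called in the first comparison and 0 to 0.898% in the second. Between TAU VEH and WT VEH, where 11 were called, the number was 6 with library size alone (2 higher, 4 lower), 19 without a filter, 22 with only the groups compared, 5 after GC and length correction, 0 with the choroid plexus covariate and 3 to 7 with 1 library left out, where 21.4, 11.1, 21.0, 2.69, 0 and 5.29 to 7.36% of all genes were called, and DESeq2 called 13 (14.8% of all genes), all 11 among them. Between TAU MOL and WT VEH, where 5 were called, it was 2, 9, 10, 1 and 0 in that order, where 6.44, 6.13, 9.19, 0.131 and 0.0119% of all genes were called, and 0 with 1 library left out (0.0116 to 0.0231%). Between WT VEH and WT VEH_HC, where 9 were called, it was 16, 34, 0, 5 and 0 (10.2, 10.4, 1.89, 4.83 and 0% of all genes), 18 by DESeq2 (11% of all genes) and 0 to 45 with 1 library left out (0.422 to 16.7%). The cause was not tested.

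The median log2 fold change moved to -0.015 (TAU VEH against WT VEH) and -0.011 (TAU MOL against WT VEH) with library size alone, and over left-out libraries it ran from 0.150 to 0.329 in WT VEH against WT VEH_HC. With the choroid plexus covariate it turned to 0.223 (TAU VEH against WT VEH), -0.150 (TAU MOL against TAU VEH), 0.056 (TAU MOL against WT VEH) and -0.300 (WT VEH against WT VEH_HC). Of the called genes, those that turned with it were, in the last comparison, Cox8a (-0.23), Cox8b (-2.57), Ndufa2 (-0.54), Ndufa5 (-0.40), Ndufb11 (-0.17), Ndufs6 (-0.16) and Uqcrh (-0.43).

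The correlation of same-numbered deviations from the group mean ran from -0.16 to 0.24. In groups of 2 the deviations of both libraries mirror each other. These few values therefore cannot show whether replicate numbers pair the samples. With the replicate block, 19 genes were called between TAU VEH and WT VEH, 9 between TAU MOL and WT VEH and 48 between WT VEH and WT VEH_HC, where 16.6, 7.85 and 17.8% of all genes were, and with the block and GC and length correction 6, 2 and 25, where 4.12, 0.410 and 9.12% of all genes were, and the median between WT VEH and WT VEH_HC was 0.330. Over all named genes and alternatives, the side of the threshold was the same in 2150 cases, in 169 of which an uncalled estimate changed sign, and a call was lost in 141 and gained in 58. Depth limits the low counts of Cox8b, Cox7b2 and Atp5l2.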

Other observations

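The genes that build and regulate the respiratory chain were read from lists of names outside the 82 genes. Of 29 assembly factors tested between TAU VEH and WT VEH, 2 rose, Lrpprc, which stabilises mitochondrial mRNAs (log2 fold change 0.29), and Ttc19, an assembly factor of complex III (0.22), and the median was -0.025. Of 18 genes of the tricarboxylic acid cycle 1 fell, Ogdh, a subunit of the oxoglutarate dehydrogenase (-0.30), and the median was 0.076. Of 16 regulators of mitochondrial genes 4 fell: Esrra, a nuclear receptor that drives oxidative genes (-0.48), Polrmt, the mitochondrial RNA polymerase (-0.41), Pprc1, a coactivator (-0.35), and Sirt3, a mitochondrial deacetylase (-0.28). After correction for GC content and length 0 of the 29, 0 of the 18 and 0 of the 16 were called. In TAU MOL against WT VEH Polrmt alone of the 16 was called, as lower, and 0 of the 29 and 0 of the 18 were called (edgeR, with 1 and 2 at an unadjusted p under 0.05).

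Between WT VEH and WT VEH_HC 3 genes of these lists rose: Cycs, the electron carrier cytochrome c (0.38), Ndufaf4, an assembly factor of complex I (0.43), and Gabpa, whose product binds the ETS motif (0.33). All 3 calls were lost after correction for GC content and length (0.17, 0.21 and 0.16). Gabpa shares exon bases with Atp5j, and without strand the reads of both cannot be told apart there. The 6 genes of the mitochondrial ribosome that rose were Mrpl12, Mrpl18, Mrpl20, Mrpl35, Mrpl51 and Mrps6, which were named after their values were seen, and after the correction 2 genes of that list were called higher. In the basal comparison 0 genes of any of these lists were called (edgeR), with 0 assembly factors, 0 genes of the tricarboxylic acid cycle and 0 regulators at an unadjusted p under 0.05.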
